A study of Mus musculus with 14 samples.

Results

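Described here is what remained of a pulse of GLI1 in mouse neural cultures at day 10 (D10) of differentiation, 5 days after the inducer was washed out. The comparison was taken by its sample labels, 3 samples that had received the pulse against 3 controls of the same day, and every gene in the authors' deposited table for D10 is a member. There were 15744 genes, of which 14792 were also listed in the day 5 (D5) table. All samples came from a mouse embryonic stem cell line, GLI1-FTA, built in the A2Lox.cre background so that doxycycline switches on a GLI1 transgene. The D10 pulse group had doxycycline at 500 ng/ml for 48 h, from D3 to D5, and was then cultured without it to D10, when the labels call the cells immature neurons. The D10 controls were the same line never given doxycycline, so effects of the drug and of GLI1 cannot be told apart. The D5 groups used for comparison, 4 induced and 4 control samples, were taken at the end of the pulse. The labels do not say that replicates were separate cultures, so p-values measure only the spread between these samples, which may be technical. The files give 1 comparison per day and no value per library, so depth per sample is unknown and spread over samples cannot be shown.

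Hedgehog signalling ends in the GLI transcription factors, and GLI1 is the member that acts as an activator of target genes. In the embryonic neural tube the ligand Sonic hedgehog is made by the notochord and the floor plate, the strip of cells at the ventral midline, and its graded signal sets ventral cell identities, while BMP and WNT signals from the roof plate set dorsal ones. The floor plate also secretes proteins that steer growing axons towards or away from the midline.

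Few genes still differed at D10, and each of them was higher after the pulse. Genes with an adjusted p under 0.05 in the authors' deposited table are called changed, and 13 of 15744 met this. That is 0.0826% of genes called higher and 0% called lower. Among them, 9 code for secreted or extracellular matrix proteins, 2 for membrane proteins and 1 for a coat protein of caveolae. In bulk samples more cells of a type and more RNA per cell cannot be told apart. Their rises ran from 1.69-fold to 2.65-fold in the authors' deposited table. At an unadjusted p under 0.05 the same table held 139 higher genes (0.883%) and 102 lower genes (0.648%), and 241 genes are 1.53% of all, where p-values spread evenly would give 5%. The share was 10.7% in the authors' deposited table for D5. Over all genes the median log2 fold change at D10 was 0.0027, the middle 50% lay between -0.06 and 0.07, and 51.1% were above 0.

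**Figure D1:**
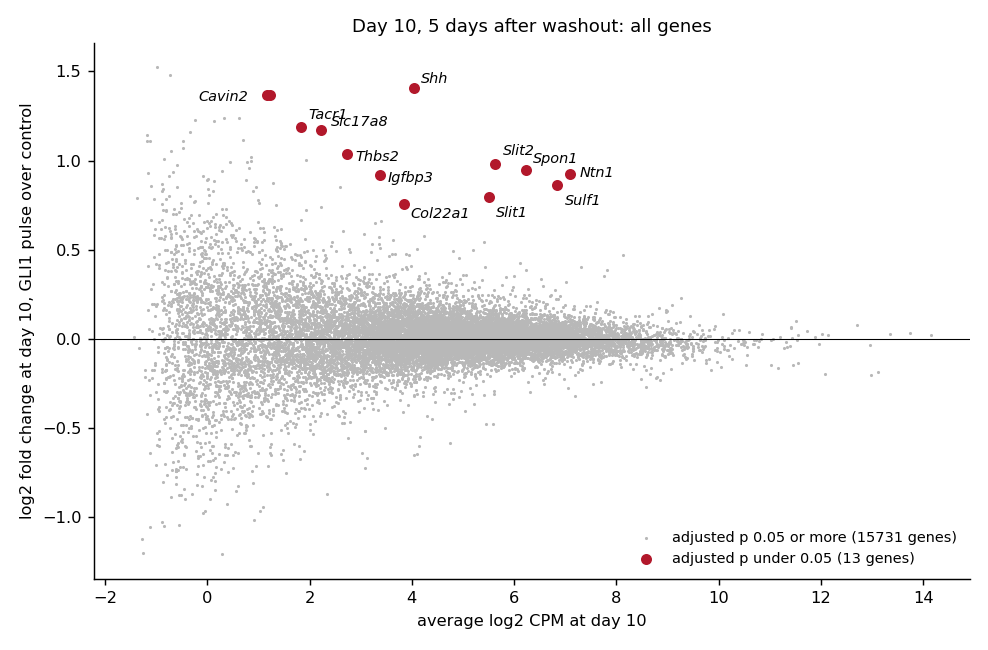
Each point is 1 of the 15744 genes, with its average log2 CPM (read counts scaled to library size) at day 10 on the horizontal axis and its log2 fold change, pulse over control, on the vertical axis. The 13 called genes (red) lie between 0.76 and 1.41, and the spread of the other 15731 (grey) widens towards low expression.

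The 6 genes called on both days were a ligand, 3 axon guidance proteins and 2 matrix proteins. The authors' deposited table for D10 gave Shh, the gene of the ligand Sonic hedgehog, a log2 fold change of 1.41 with an adjusted p of 3.21e-13, a 2.65-fold rise. An implied standard error (SE) was derived for each gene by dividing its log2 fold change by the z that matches its p-value. For Shh it was 0.17, with a 95% interval of 1.08 to 1.73. At D5 Shh stood at 3.70 in the authors' deposited table, so 37.9% of the D5 log2 fold change was left at D10. Its average log2 CPM was 1.30 at D5 and 4.04 at D10, and this share compares ratios and not amounts of RNA. The difference between days was tested per gene with the implied SEs, as an approximation. For Shh, D10 minus D5 was -2.30 (95% interval -2.99 to -1.61) from the authors' deposited tables (adjusted p = 2.14e-08). The lncRNA gene 9530036O11Rik, which overlaps Shh, stood at 1.24 in the authors' deposited table for D10 (implied SE 0.33, adjusted p = 0.174), and without knowing that counting used strand, its reads and those of Shh cannot be told apart.

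For the 3 guidance genes the difference between days did not pass the test. Slit2, a repellent for axons that carry Robo receptors, stood at 0.98 on the log2 scale at D10 (implied SE 0.13, adjusted p = 9.96e-10) and 0.88 at D5 in the authors' deposited tables. Ntn1, which codes for netrin-1, an attractant made by the floor plate, stood at 0.93 at D10 (implied SE 0.14, adjusted p = 1.06e-07) and 0.71 at D5 in the authors' deposited tables. Slit1, another Slit repellent, stood at 0.80 at D10 (adjusted p = 8.15e-05) and 1.19 at D5 in the authors' deposited tables. The difference between days, D10 minus D5, was 0.10 for Slit2 (95% interval -0.22 to 0.42), 0.21 for Ntn1 (-0.12 to 0.55) and -0.39 for Slit1 (-0.79 to 0.0063), each from the authors' deposited tables (adjusted p = 1 for each).

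For both matrix genes of this set the change was smaller at D10. Spon1, which codes for F-spondin, a secreted floor plate protein, stood at 1.84 at D5 and 0.95 at D10 on the log2 scale of the authors' deposited tables (adjusted p = 1.39e-07 at D10 and 0.000109 for the difference). Col22a1, a collagen gene, stood at 2.40 at D5 and 0.76 at D10 in the authors' deposited tables (adjusted p at D10 = 0.00607), and 31.6% of its D5 change was left (difference between days, adjusted p = 2.44e-10).

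Among the 7 other called genes, 3 were listed at D5 without passing there. Sulf1 codes for an enzyme that trims 6-O sulfate from heparan sulfate outside the cell. It stood at 0.86 at D10 (implied SE 0.13, adjusted p = 1.06e-07) and 0.26 at D5 (adjusted p = 0.265) in the authors' deposited tables. Thbs2, the matrix protein thrombospondin-2, stood at 1.04 at D10 (implied SE 0.20, adjusted p = 0.000658) and -0.42 at D5 (adjusted p = 0.689) in the authors' deposited tables. Igfbp3, a secreted binding protein for insulin-like growth factors, stood at 0.92 at D10 (implied SE 0.17, adjusted p = 0.000303) and 0.23 at D5 (adjusted p = 0.983) in the authors' deposited tables. Computed from the authors' deposited tables, the difference between days passed for Sulf1 at 0.60 (95% interval 0.27 to 0.94, adjusted p = 0.0356) and for Thbs2 at 1.46 (0.82 to 2.10, adjusted p = 0.00128). For Igfbp3 the difference from the authors' deposited tables was 0.68 (0.15 to 1.22) and did not pass (adjusted p = 0.428).

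Cavin2, Tacr1 and Slc17a8 were not listed in the D5 table. Cavin2, a coat protein of caveolae, the small pits of the cell membrane, stood at 1.36 on the log2 scale in the authors' deposited table for D10 (implied SE 0.27, adjusted p = 0.000691). Tacr1, the receptor for substance P, stood at 1.19 in the authors' deposited table for D10 (implied SE 0.23, adjusted p = 0.000691). Slc17a8 codes for VGLUT3, which loads glutamate into synaptic vesicles, and stood at 1.17 in the authors' deposited table for D10 (implied SE 0.27, adjusted p = 0.0152).

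**Figure D2:**
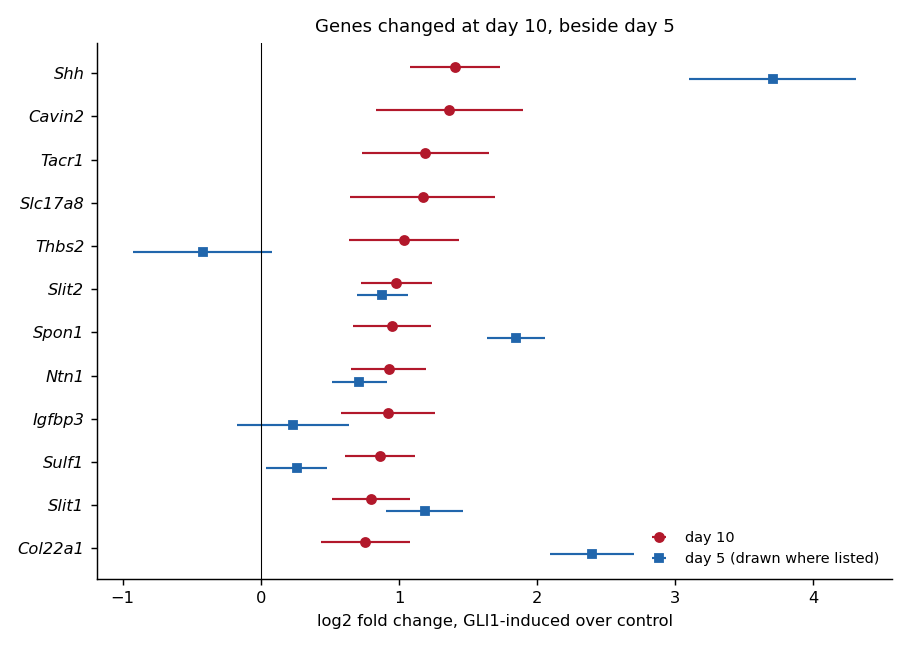
Log2 fold changes of 12 of the 13 genes called at day 10, for day 10 (red circles) and, where the gene was listed, for day 5 (blue squares), with bars for the 95% interval from the implied SE. Shh, Spon1 and Col22a1 lie further right at day 5, while Sulf1 and Thbs2 lie further right at day 10.

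What can pass depended on expression. In the authors' deposited table the median implied SE was 0.39 for the 1858 genes with an average log2 CPM under 1, where 0 were called, and 0.125 for the 4800 genes between 5 and 7, where 4 were called. A gene with the median SE of its range needed a log2 fold change of 1.69 to pass in the former range and 0.54 in the latter. In each range, changes smaller than this could pass only in genes with an SE below the median. Dividing z within bins of expression, so that its median size equals that of a standard normal, gave 119 calls, 78 higher (0.495%) and 41 lower (0.26%), with the 13 genes among them. Over all genes the median size of z was 0.41 before this, against 0.67 for a standard normal. Such a rescaled p assumes that most genes in a bin did not change, which was not tested.

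The genes nearest to the threshold lay on both sides. Calb2, which codes for the calcium-binding protein calretinin, had a log2 fold change of -0.65 in the authors' deposited table for D10 (implied SE 0.17, adjusted p = 0.0959). In the authors' deposited table Aqp4, a water channel of astrocytes and ependymal cells, stood at 1.12 and Barhl1, a transcription factor of dorsal interneurons, at -1.21 (adjusted p = 0.144 for each). From the authors' table as deposited, the secreted protein gene Ccdc3 stood at 0.85 (adjusted p = 0.127). Aqp4 and Barhl1 had an average log2 CPM under 1. With a minimum of 1, 8 of the 15 uncalled genes above 0 with the smallest p had been called higher at D5, where 2.34% of all genes were. Of the like 15 below 0, 5 had been called lower, where 2.1% of all genes were, and 5 were not listed at D5. The former ran from 0.38 to 0.85 and included the matrix protease gene Mmp2 at 0.58, the collagen genes Col5a2 at 0.59 and Col8a2 at 0.72 and the lipoprotein lipase gene Lpl at 0.74 in the authors' deposited table. The latter ran from -0.97 to -0.48 and included the neuronal transcription factor genes Tlx3 at -0.97 and Pou4f2 at -0.67 and the growth factor gene Ptn at -0.58. Gm2260 and Gm2274, both at -0.51, are near-identical copies, so their counts are uncertain. Both were among the genes called lower at D5 and are not 2 separate pieces of evidence.

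The induced gene and the pathway's feedback genes Hhip and Ptch1 did not pass at D10 by the authors' FDR. Gli1 stood at 0.57 at D10 (implied SE 0.18, adjusted p = 0.780) against 4.79 at D5 in the authors' deposited tables, and 11.9% of the D5 change was left (adjusted p of the difference = 5.19e-40). Transgene and endogenous transcripts are not distinguished in this row. Hprt, the purine salvage gene next to which A2Lox.cre cells carry the cassette, was at -0.0092 at D10 and 5.32 at D5 in the authors' deposited tables. Of the 19 measured Hedgehog target genes, 2 rose at D10 (Ntn1 and Igfbp3) and 0 fell, beside 0.0826% and 0% of all genes. Above 0 were 18 of them, with a median log2 fold change of 0.28, beside 0.0027 over all genes. At D5, 13 members of that list were called higher, beside the 2.34% of all genes given above. Members that did not pass at D10 in the authors' deposited table included Hhip, a membrane protein that binds the ligand, at 0.55 (5.31 at D5), the receptor gene Ptch1 at 0.28 (1.82 at D5) and the cyclin gene Ccnd1 at 0.38 (0.67 at D5). With rescaled p, Gli1, Hhip, Ptch1 and Ccnd1 passed too, which made 6 members higher and 0 lower, beside 0.495% and 0.26% of all genes.

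Floor plate genes held 7 of the 13 calls. Of the 16 measured members 7 rose, 0 fell and 9 did not pass, beside 0.0826% of all genes higher and 0% lower. With 13 members above 0 and 3 below, the median of the list was 0.33. Over all genes the median was 0.0027, with 51.1% above 0. This list and the others were made with earlier results of these data known, so its count is no independent evidence of direction. The risen members included Shh, Slit2, Sulf1, Ntn1, Spon1 and Slit1. The transcription factors that specify the floor plate did not pass at D10 in the authors' deposited table, with Foxa2 at 0.04 (1.37 at D5) and Foxa1 at 0.25 (1.41 at D5). Foxa1 and Foxa2 are also on the endoderm list used below, so in bulk samples their RNA cannot be assigned to floor plate cells. Slit3, the remaining Slit gene, stood at 0.03 at D10 against 2.19 at D5 in the authors' deposited tables.

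No gene of the other dorsoventral progenitor and neuron lists was called at D10 by the authors' FDR, where ventral members lay mostly above 0 and dorsal ones mostly below. Over all genes 51.1% were above 0, with a median of 0.0027. Of 6 measured ventral progenitor genes 5 were above 0, with a median of 0.41, and the leading value was that of Nkx2-2, a regulator of the most ventral progenitors, at 0.83 (5.38 at D5) in the authors' deposited tables. Of 7 measured intermediate progenitor genes 7 were above 0, with a median of 0.20. Of 21 measured roof plate and dorsal progenitor genes 19 were below 0, with a median of -0.42. On the lower side 10 of them had an unadjusted p under 0.05, beside 0.648% of all genes. Among these 10 were the transcription factor genes Gsx1 at -0.87, Msx3 at -0.72 and Zic1 at -0.55 in the authors' deposited table for D10. Of 22 measured dorsal interneuron genes 18 were below 0, with a median of -0.33. Of 21 measured motor neuron and ventral interneuron genes 15 were above 0, with a median of 0.11, and the values ran both ways, with Gata2 at 0.65 and Phox2a at -0.59 in the authors' deposited table. With rescaled p, 5 dorsal progenitor genes (Gsx1, Msx3, Zic1, Zic2 and Wnt1) and 3 dorsal interneuron genes (Barhl1, Pou4f2 and Tfap2b) passed as lower and 0 as higher. Over all genes 0.26% passed as lower and 0.495% as higher with rescaled p. On the ventral side Nkx6-1 and Gata2 were among those that then passed as higher and Phox2a among those lower, and Dbx1 of the intermediate genes passed as higher.

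**Figure D3:**
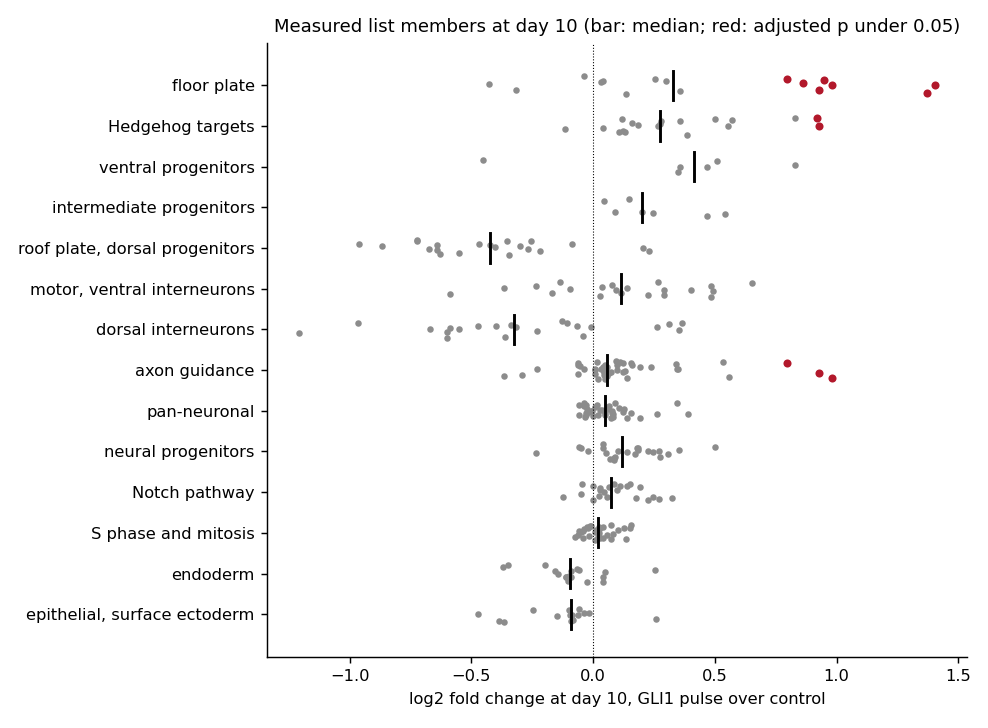
Each point is the day 10 log2 fold change of 1 measured gene, in rows by gene list, with a bar at the list's median and red for called genes. The floor plate row holds 7 red points, while the dorsal progenitor and dorsal interneuron rows lie mostly left of 0 with no red point.

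Genes of neuronal maturation and of the cell cycle held no call. Of 37 measured pan-neuronal genes 0 passed, with a median of 0.05, and of 32 measured genes of S phase and mitosis 0 passed, with a median of 0.02. Of 24 measured neural progenitor genes 0 passed and 20 were above 0, with a median of 0.12. Of 45 measured axon guidance genes 3 rose, the Slit and netrin genes above, and 37 were above 0 with a median of 0.06. Of 42 measured matrix genes 3 rose (Spon1, Thbs2 and Col22a1), 22 were above 0 and the median was 0.02. Over all genes 0.0826% were called higher and 51.1% were above 0.

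Transmitter and peptide genes held a call each, and other members ran both ways. Of 15 measured transmitter genes 1 rose (Slc17a8), and the median was 0.01. Beside this and the counts below, 0.0826% of all genes were called higher. The 35 lists were made with earlier results of these data known and held all 13 called genes. A call in a list is thus a description only. The other vesicular glutamate transporter genes stood at -0.43 (Slc17a6) and -0.52 (Slc17a7) in the authors' deposited table for D10, and the GABA synthesis genes Gad1 and Gad2 at 0.26 and 0.29. Tph2, the enzyme of serotonin synthesis in neurons, stood at 1.22 in the authors' deposited table (implied SE 0.37, adjusted p = 0.602). Of 9 measured neuropeptide and peptide receptor genes of 29 listed, 1 rose (Tacr1). Of 18 measured genes of the insulin-like growth factor system 1 rose (Igfbp3), with a median of -0.02, and in the authors' deposited table Igfbp7, another secreted binding protein, stood at 1.02 (adjusted p = 0.316). Of 6 measured caveolin and cavin genes 1 rose (Cavin2), with Cavin1 at 0.20 and Cav1 at 0.16 in the authors' deposited table. Of 33 measured heparan sulfate genes 1 rose (Sulf1), with a median of 0.01.

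The cultures did not hold RNA of neurons alone. Of 37 pan-neuronal genes 36 had a higher average log2 CPM at D10 than at D5, and 32 of 32 cell cycle genes a lower one, though the tables of the days were normalised separately. Krt18, an epithelial keratin gene, reached an average log2 CPM of 9.04 and Gata4, an endoderm factor gene, one of 7.48 in the authors' deposited D10 table. Between pulse and control, 14 of 18 measured endoderm genes and 14 of 15 measured epithelial and surface ectoderm genes were below 0, with medians of -0.10 and -0.09 and 0 called. The part of these cells in the results above was not tested. Other marker lists also held 0 calls. The members above 0 were 8 of 13 for mesoderm and heart (median 0.07), 10 of 15 for mesenchyme (0.04), 3 of 11 for endothelium and blood (-0.10), 6 of 13 for neural crest (-0.01), 9 of 14 for glia (0.06) and 9 of 13 for pluripotency (0.20).

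The remaining pathway and regional lists held 1 call. Of 26 measured ligands, receptors and transducers of the Hedgehog pathway 1 rose (Shh), 0 fell and 16 were above 0, with a median of 0.07. Over all genes 0.0826% were called higher and 51.1% were above 0. With 0 calls each, the members above 0 were 18 of 22 for the Notch pathway (median 0.075), 14 of 21 for proneural factors (0.03), 8 of 13 for dopamine and serotonin neurons (0.08) and 7 of 13 for forebrain and midbrain genes (0.03). They were 4 of 11 for Hox and Cdx genes (-0.11), 6 of 14 for Wnt targets (-0.05), 4 of 15 for BMP targets (-0.11), 9 of 12 for p53 targets (0.04) and 12 of 13 for the mitochondrial genome (0.03).

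Few of the changes seen at D5 were called at D10. Of the 671 genes called at D5, 642 were listed at D10, and 6 were called there. The sign was kept by 455 of the 642 (70.9%), beside 58.1% of the 14150 genes not called at D5, and the median gene kept 9.82% of its D5 log2 fold change. Genes higher at D5 had a median of 0.99 then and 0.07 at D10, and genes lower at D5 a median of -0.66 then and -0.08 at D10, with 0 of the 307 lower genes called at D10. Nefm and Nefl, neurofilament genes that were lower at D5, stood at 0.06 and 0.03 at D10 in the authors' deposited table. The difference between days passed for 183 of 14792 genes (1.24%), of which 179 were closer to 0 at D10 and 4 further from it.

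**Figure D4:**
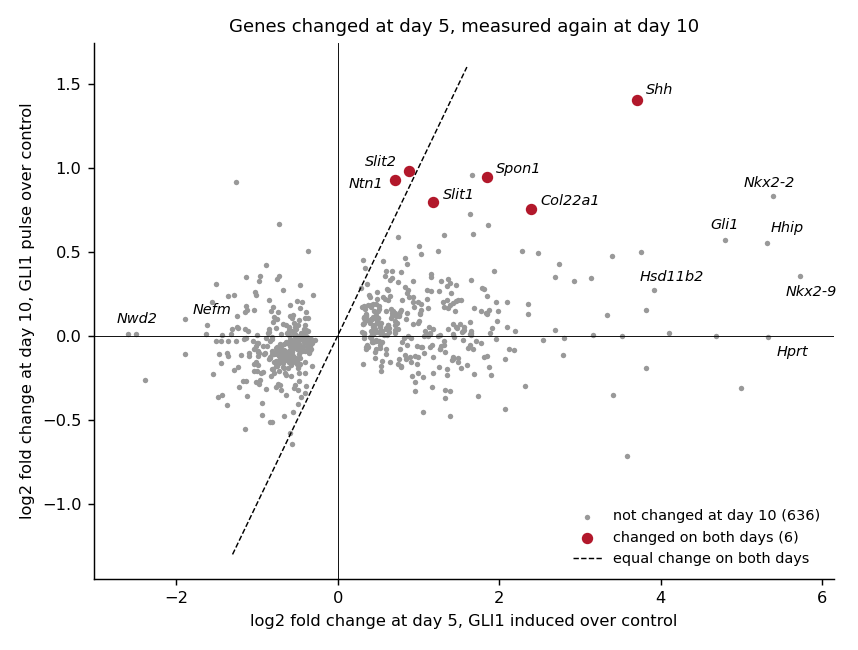
The 642 genes called at day 5 and listed at day 10, with the log2 fold change at day 5 on the horizontal and at day 10 on the vertical axis, and a dashed line for equal change. Most points lie along the horizontal line at 0, and the 6 genes called on both days (red) are all above it.

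Promoter sequence was read for called genes to show what lies upstream of genes that rose together. Windows from 250 bases before to 50 after the start site were found for 6 of the 13 genes (7 windows) in a RefSeq promoter table of build GRCm38.p6. For 4 of the 7 windows, those printed for Slit2 and Igfbp3 included, that start site was not the outer end of the gene in the RefSeq gene table. The 250 upstream bases are printed for 4 genes, 2 with GC-rich windows (Slit2 at 68.0% and Igfbp3 at 71.7%) and 2 with GC-poorer ones (Thbs2 at 48.3% and Cavin2 at 43.3%), where the median of all promoters was 60.7%. They lie at chr5:47982905-47983154 on the plus strand for Slit2, chr11:7213924-7214173 on the minus strand for Igfbp3, chr17:14694263-14694512 on the minus strand for Thbs2 and chr1:51288876-51289125 on the plus strand for Cavin2. Sequences run 5′ to 3′ along the gene, and capitals mark a match to the GLI core.
Slit2: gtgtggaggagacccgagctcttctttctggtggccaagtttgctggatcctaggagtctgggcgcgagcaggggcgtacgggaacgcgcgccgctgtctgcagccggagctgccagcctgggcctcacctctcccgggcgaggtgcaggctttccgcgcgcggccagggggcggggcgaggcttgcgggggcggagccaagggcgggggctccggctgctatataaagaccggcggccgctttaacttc
Igfbp3: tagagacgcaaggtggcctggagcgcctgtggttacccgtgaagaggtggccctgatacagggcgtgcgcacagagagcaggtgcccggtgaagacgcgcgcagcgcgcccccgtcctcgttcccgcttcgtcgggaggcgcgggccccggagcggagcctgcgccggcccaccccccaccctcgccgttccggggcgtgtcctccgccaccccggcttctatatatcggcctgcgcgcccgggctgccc
Thbs2: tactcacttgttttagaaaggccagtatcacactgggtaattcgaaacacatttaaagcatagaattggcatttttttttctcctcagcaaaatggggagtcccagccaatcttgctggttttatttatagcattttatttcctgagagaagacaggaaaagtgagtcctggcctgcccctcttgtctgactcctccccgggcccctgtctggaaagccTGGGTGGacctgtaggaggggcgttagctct
Cavin2: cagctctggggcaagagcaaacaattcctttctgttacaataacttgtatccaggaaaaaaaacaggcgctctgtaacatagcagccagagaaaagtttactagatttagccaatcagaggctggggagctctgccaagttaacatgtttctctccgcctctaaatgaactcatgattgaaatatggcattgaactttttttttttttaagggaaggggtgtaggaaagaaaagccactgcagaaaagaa

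The GLI consensus GACCACCCA was searched on both strands and found in 28 of 14526 promoter windows (0.193%) and in 0 of the 7 windows of called genes. Its core CCACCCA, which is part of the consensus, was found in 1379 windows (9.49%) and in 1 of the 7, that of Thbs2, as the reverse complement TGGGTGG. A match is a description of the letters and not of binding.

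Genes next to the called genes in RefSeq order were measured for comparison. There were 26 such neighbours, of which 16 were above 0 and 10 below at D10, with a median log2 fold change of 0.04 and 0 called. Leaving out 9530036O11Rik, the other 25 ranged from -0.35 to 0.79 in the authors' deposited table.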

How the data were processed

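Polyadenylated RNA of 3 pulsed and 3 control D10 samples was compared, per the labels, beside 4 and 4 at D5. Per the file headers, the authors' columns are Entrez identifier, log fold change, mean log CPM, p-value and FDR. The deposited log2 base of the average CPM was checked (2 raised to it sums to 1001340 at D10), and the same base was assumed for the fold change. The FDR matched a Benjamini-Hochberg adjustment within 3.41e-05. The sources used here do not give aligner, counting, use of strand, test or build, and depth per sample is unknown. Symbols came from the files and a RefSeq table of GRCm38.p6 (94.6% of identifiers matched).

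Computed here, with Python 3.11.15, pandas 2.3.3 and scipy 1.17.1, were z from each p-value, an implied SE (no replicate SD), 95% intervals, and a two-sided normal test of D10 minus D5 with Benjamini-Hochberg adjustment over 14792 genes. The tests were tried on simulated data. Members and the 35 gene lists were chosen with earlier results of these data known. Named are Gli1, Hprt, the called genes, the 15 uncalled genes on each side with the smallest p and an average log2 CPM of at least 1, up to 3 leading members of each list, the 10 leading D5 genes on each side, and the leading genes of the difference. Ptch1, Foxa2, Slit3, Lmx1a, Lmx1b, Slc17a7, Gad2, Krt18, Gata4 and Cav1 were among genes outside these rules, named after their values were seen. Ccdc3, Foxa1, Gad1 and Cavin1 were taken by the rules. Some genes that these rules take, 1 called gene among them, are not reported here. Alternatives were other thresholds, Holm's adjustment, a 2-fold minimum, an expression minimum, rescaled p and a smoothed SE.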

Additional observations from a re-analysis of the deposited data

Results flagged for a closer look

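The effect of the pulse differed between D5 and D10 for 183 genes by the test of the difference, and for 4 of them it lay further from 0 at D10. For Thbs2 the difference in log2 fold change, D10 minus D5, was 1.46. Sulf1 differed by 0.60. Tenm4, a teneurin cell adhesion gene, stood at 0.50 at D10 and -0.36 at D5 in the authors' deposited tables, a difference of 0.87 (adjusted p = 0.00283). Mmp2, a matrix protease gene, stood at 0.58 and -0.21 in the authors' deposited tables, a difference of 0.79 (adjusted p = 0.0281). Tenm4 and Mmp2 were not called at D10.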

How the results depend on the processing

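The 13 calls at D10 became 11 at an adjusted p under 0.01, 14 under 0.1 (the added gene was Calb2, lower), 10 with Holm's adjustment, 13 above a minimum average log2 CPM of 1, 6 with a 2-fold minimum and 119 with rescaled p. The genes lost included Col22a1 and Slc17a8 with Holm's adjustment, and Slc17a8 at 0.01. The share of D5 genes with the same sign at D10 was 61.9% with a 2-fold minimum at D5, against 70.9%. The 183 genes that differed between days became 89 with Holm's adjustment, 0 of them further from 0 at D10, and 268 with a smoothed SE. These settings leave the deposited log2 fold changes as they are, so none could turn a direction. No paired analysis was possible because the files hold comparisons and no value per library, and for the same reason no replicate could be left out. Low expression limits what could pass at D10.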

Other observations

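Genes known to be induced by low oxygen, many of them enzymes of glycolysis, had log2 fold changes mostly just below 0 after the pulse, and none passed by the authors' FDR. The list was written after values of its members were seen, so its count is a description only. Of 25 measured members 24 were below 0 at D10, with a median log2 fold change of -0.21, beside 51.1% of all genes above 0. With 0 called, 1 had an unadjusted p under 0.05 (P4ha2, a collagen prolyl hydroxylase gene, at -0.32 in the authors' deposited table), and 5 passed with rescaled p. Over all genes 0.648% had such an unadjusted p on the lower side, and 0.26% passed as lower with rescaled p. Pdk1, which restrains entry of pyruvate into mitochondria, stood at -0.31 and the glycolytic gene Pgk1 at -0.23 in the authors' deposited table. At D5 the median over the 24 members listed there was -0.26, with 5 called lower.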
